A study of Mus musculus with 48 samples.

Results

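Gene expression was compared in the colon of LH and LL offspring, which were both born to dams on diet L and differed in the diet eaten after weaning. The arrays whose titles give colon RNA of diet LH or diet LL were taken, 12 of the 48 arrays of the series, with 6 mice in each group. All mice were C57/BL6. The labels call diet L deficient and diet H sufficient in selenium (Se) and folate, and the study's methods call them marginally deficient and supplemented, both in a high-fat base, and the dams ate diet L through mating, gestation and lactation. LL mice stayed on diet L from weaning until 12 weeks of age, and LH mice were moved to diet H for the same period. The comparison asks how the colon differed when mice whose dams ate diet L were given diet H in place of diet L after weaning. HH and HL mice, which serve for comparison, came from dams on diet H and ate diet H or diet L after weaning. The labels do not give the litters, so mice of a group may be siblings.

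Se enters proteins as selenocysteine, which ribosomes insert at a stop codon with the help of a dedicated set of factors, and selenoproteins include glutathione peroxidases and thioredoxin reductases. Selenoprotein P carries Se in the blood. Folate carries the one-carbon units used to make purines, thymidylate and methionine, and so feeds both DNA synthesis and methylation. The colon epithelium renews itself continuously from dividing crypt cells.

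Each array held mouse RNA labelled with Cy3 and a common reference labelled with Cy5, and a value is the log2 ratio of mouse over reference. Each of the 6 slides carried 1 LH and 1 LL array beside 1 HH and 1 HL array. Unless stated otherwise, the differences below were taken within slides. Of the spots, between 66.8 and 73.0% were well above background in Cy3 on the 12 arrays. The colon transcription factor *Cdx2* lay between 1.04 and 1.86 on these arrays against at most -3.94 in liver of the same diets, and *Muc2*, the main colonic mucin, lay between 1.12 and 1.64 against at most -2.67. Albumin (*Alb*) was at most -3.90 in the colon and at least 0.46 in the liver. Of the colon markers checked, *Aqp8* alone was lower in colon than in liver. It was at most -3.04 in the colon and at least -0.92 in the liver. In such tissue RNA, fewer cells of a type and less RNA per cell cannot be told apart.

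Some LL arrays stood apart. The mice were described as male, but *Xist*, the RNA of the inactive X chromosome, had a log2 Cy3 signal over 9 on 3 of 6 LL arrays and on 0 of 6 LH arrays. These are called *Xist* arrays below. LL replicates 1 and 3, with a signal of 13.21 for *Xist*, had 7.4 and 6.4 for the Y-linked translation factor *Eif2s3y*. An array with *Eif2s3y* under 9 is said below to lack Y signal. LL replicate 5 had a weaker *Xist* signal of 9.55 and carried both transcripts. On the LH arrays, *Eif2s3y* had a log2 Cy3 signal of 10.99 to 11.34. The difference LH minus LL was -1.83 ± 1.12 for *Xist*, and for the Y-linked genes *Eif2s3y*, *Ddx3y*, *Kdm5d* and *Uty* it was 1.66, 1.27, 0.87 and 0.69. Without all *Xist* arrays *Eif2s3y* and *Ddx3y* turned to -0.0095 and -0.053 and *Xist* to 1.03. LL replicate 4 carried lymphocyte transcripts at a high level. The mean log2 ratio of 12 B and plasma cell genes was 2.00 in that mouse, between -0.40 and 0.11 in the other LL mice and between -0.10 and 0.27 in the LH mice. Results are therefore also given without the *Xist* arrays where their values bear on them. Leaving out all *Xist* arrays kept 6 LH and 3 LL mice, and dropped 2 HH arrays and 1 HL array as well. The LH arrays on the slides of LL replicates 1, 3 and 5 then had no LL array beside them.

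**Figure D1:**
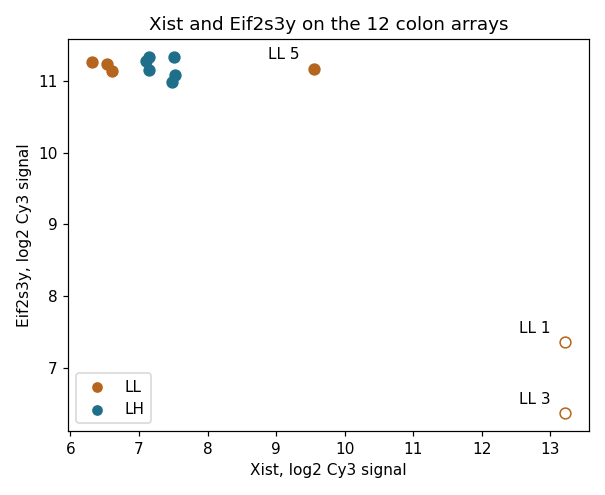
Log2 Cy3 signal of Xist (horizontal) against the Y-linked gene Eif2s3y (vertical), 1 point per mouse, for 6 LL and 6 LH colon arrays. Open points are LL replicates 1 and 3, with Xist over 9 and Eif2s3y under 9. All 6 LH mice lie at an Xist signal of 7.10 to 7.53.

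No probe was differentially expressed between LH and LL colon at FDR under 0.05, with or without a fold change over 1.5, and the lowest adjusted p in limma was 0.640. At an unadjusted p under 0.05, 2492 of 41173 probes differed, which is 6.05%, of which 1475 were higher (3.58%) and 1017 lower (2.47%) in LH mice. With median centring in place of loess the split turned to 741 higher and 1427 lower, so the direction of the whole set of probes rests on the normalisation. Over genes, with the brightest probe standing for each, 1182 of 18434 passed this unadjusted threshold (6.41%), 717 higher (3.89%) and 465 lower (2.52%). The LH and LL mice did not overlap for 19 genes (0.103%), 9 higher (0.0488%) and 10 lower (0.0542%) in LH. The median 95% interval of a probe reached 0.151 on the log2 scale to either side of its estimate, a fold change of 1.11. That interval is for 1 probe taken alone, with no adjustment for the number of probes.

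Among the factors that place selenocysteine into proteins, *Secisbp2* was lower in LH mice. It encodes the protein that binds the selenocysteine insertion element of selenoprotein mRNAs and lies at chr13:51651682-51684044 in GRCm38.p6. Its log2 ratio was -0.42, -0.17 and -0.08 (lowest, median and highest) in 6 LL mice and -0.55, -0.51 and -0.27 in 6 LH mice. The ranges overlapped, but LH was the lower array on all 6 slides. The difference was -0.24 ± 0.059 (SE) on the log2 scale, with an unadjusted p of 0.00055 and an adjusted p of 0.730 in limma. A second probe of the gene gave -0.29 ± 0.059. Leaving out all *Xist* arrays gave -0.29, and over 30 alternative settings the difference ran from -0.34 to -0.20. Of a list of 9 genes for this machinery, 2 were lower at an unadjusted p under 0.05 (2.52% of all genes were) and 0 were higher. Of the 9 genes, 6 were below 0 and 3 above, up to 0.18. The median was -0.04 against 0.0075 over all genes. The count was 1 without all *Xist* arrays (3.69% of all genes were lower) and 1 with median centring (4.98%). Beside *Secisbp2*, the 2 held *Lrp8*, a receptor that takes up selenoprotein P and is not an insertion factor. *Lrp8* was at -0.14 ± 0.068, with an unadjusted p under 0.05 in 9 of 30 alternatives. Its other probes read -0.0055 and -0.12. *Eefsec*, the elongation factor that delivers the selenocysteine tRNA, was at -0.10 ± 0.052, and *Sepsecs* and *Pstk*, which make the selenocysteine on its tRNA, were at -0.04 ± 0.058 and -0.05 ± 0.078. The mean of the 9 genes, *Secisbp2* and *Lrp8* included, was lower in LH on all 6 slides, with within-slide differences from -0.103 to -0.0046. *Secisbp2*, chosen for its low p in these data, itself differed by -0.41 to -0.07 on the slides. The mean therefore does not show whether the other genes were lower.

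The selenoproteins themselves differed little. Of 24 selenoprotein genes, all well above background on at least 9 of the 12 arrays, 1 was higher at an unadjusted p under 0.05 (3.89% of all genes were) and 0 were lower, and the median difference was 0.04. With median centring 0 passed and 19 of the 24 were below 0, as were 11776 of all 18434 genes. The median turned to -0.06, against -0.04 over all genes. Leaving out all *Xist* arrays gave 3 higher genes (5.37% of all genes) and a median of 0.07. The 1 gene was *Selenop*, which encodes selenoprotein P. Its log2 ratio was -1.44, -1.09 and -0.95 in the LL mice and -1.20, -0.79 and -0.65 in the LH mice. LH was higher on all 6 slides, although the groups overlapped. The difference was 0.29 ± 0.104 (fold change 1.22, unadjusted p 0.0119, adjusted p 0.747 in limma). Without all *Xist* arrays it was 0.30. After dams on diet H, the same change of offspring diet (HH minus HL) gave 0.21 ± 0.104 for *Selenop*, and the difference between both values had an unadjusted p of 0.592 in limma.

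The transcripts that are often followed as markers of Se supply did not separate the groups. *Gpx1*, the cytosolic glutathione peroxidase, had a difference of -0.01 with a 95% interval of -0.15 to 0.13. *Selenow*, a small selenoprotein of the redox system, was at 0.08 (-0.05 to 0.21), and *Selenoh*, a nuclear selenoprotein, was at 0.03 (-0.13 to 0.20). *Gpx2*, the gastrointestinal glutathione peroxidase, was at 0.07 (-0.12 to 0.27), and *Gpx4*, which reduces lipid peroxides, at -0.07 (-0.20 to 0.07). These intervals hold 0 and reach at most 0.27 on the log2 scale.

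**Figure D2:**
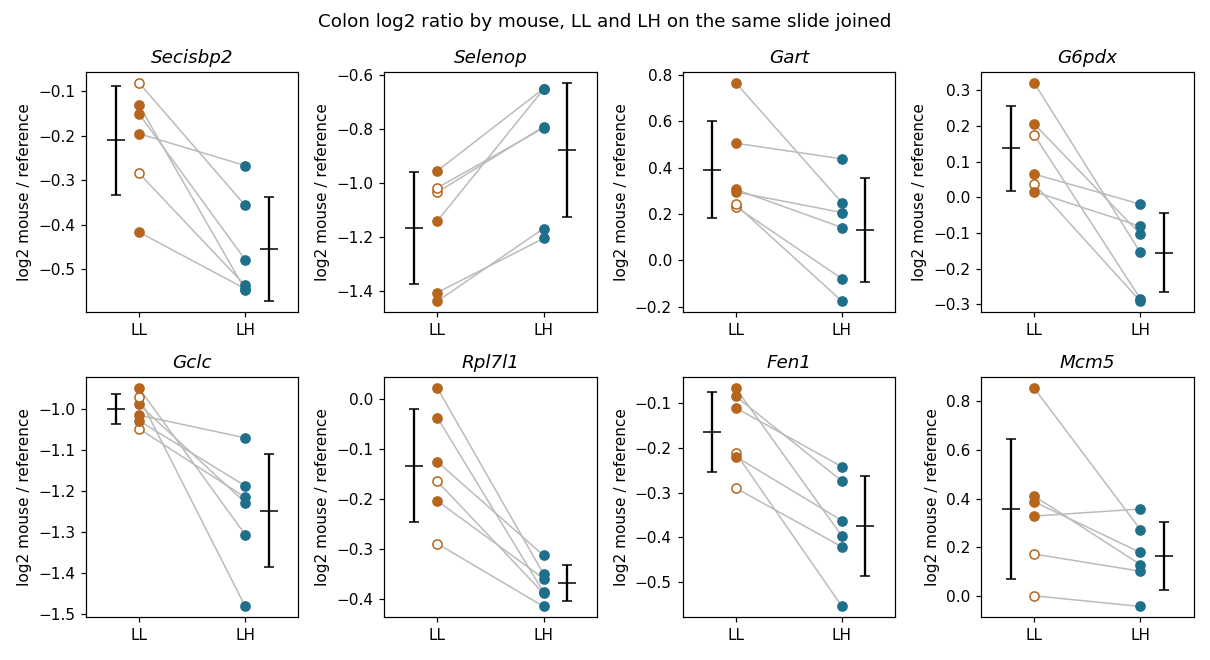
Log2 ratio of mouse over reference for 8 genes, 1 point per mouse (6 LL, 6 LH), with grey lines joining the LL and LH arrays of a slide. Black bars are the group mean and SD. Open points are LL replicates 1 and 3, with a log2 Cy3 signal over 9 for Xist and under 9 for Eif2s3y. Secisbp2, Gart, G6pdx, Gclc, Rpl7l1 and Fen1 were lower in LH on all 6 slides, Selenop was higher on all 6, and Mcm5 was lower on 5.

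In the folate cycle, 2 of 20 measured genes were lower in LH mice at an unadjusted p under 0.05 (2.52% of all genes were) and 0 were higher, with a median of -0.0037. The count was 1 without all *Xist* arrays (3.69% of all genes were lower) and 4 with median centring (4.98%). *Gart* encodes an enzyme of purine synthesis that uses a folate cofactor, at chr16:91621395-91646972. The LL mice had log2 ratios of 0.23, 0.30 and 0.77 and the LH mice of -0.18, 0.17 and 0.44. LH was lower on all 6 slides, and the difference was -0.26 ± 0.073 (unadjusted p 0.0020, adjusted p 0.747 in limma), and -0.31 without all *Xist* arrays. *Mtfmt*, which formylates the mitochondrial initiator tRNA with a folate cofactor, was at -0.18 ± 0.073, and was lower on 4 of 6 slides. *Tyms*, which makes thymidylate, was at -0.0048 ± 0.084, and *Mtr*, the methionine synthase, at -0.12 ± 0.096. Of 8 genes of folate uptake and storage, 0 passed the unadjusted threshold. The reduced folate carrier *Slc19a1* had the lowest p among them with -0.09 ± 0.070, and -0.01 without all *Xist* arrays, and the intestinal folate transporter *Slc46a1* was at 0.08 ± 0.072.

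The lists of methyl metabolism held 1 gene each at an unadjusted p under 0.05, of 15 and of 11 genes, where 6.41% of all genes passed. *Mat2b*, the regulatory subunit of the enzyme that makes S-adenosylmethionine, was at 0.12 ± 0.047 and higher on all 6 slides, with 0.04 under median centring. In the methionine cycle and transsulfuration no gene passed without all *Xist* arrays. *Dnmt1*, the maintenance DNA methyltransferase, was at -0.14 ± 0.055 and lower on 5 of 6 slides, with -0.26 without all *Xist* arrays. In the liver of the same diets *Dnmt1* was at 0.21 ± 0.091, and the colon and liver differences differed with an unadjusted p of 0.0165 in limma.

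Of 20 genes that answer to the antioxidant factor Nrf2, 2 were lower in LH mice with no overlap of the groups (0.0542% of all genes). The same 2 were lower at an unadjusted p under 0.05 (2.52% of all genes were), and 0 were higher. *G6pdx*, which supplies NADPH through the pentose phosphate pathway, lies at chrX:74409483-74428880. Its log2 ratio was 0.02, 0.12 and 0.32 in LL mice and -0.29, -0.13 and -0.02 in LH mice, so every LH mouse was below every LL mouse. The difference was -0.29 ± 0.067 (unadjusted p 0.00034, adjusted p 0.730 in limma). *Gclc*, the catalytic subunit of the first enzyme of glutathione synthesis, was -1.05, -1.0 and -0.95 in LL mice. It was -1.48, -1.22 and -1.07 in LH mice, again with no overlap, and the difference was -0.25 ± 0.076 (unadjusted p 0.0042, adjusted p 0.747). *G6pdx* is X-linked, and its difference without all *Xist* arrays was -0.33, with -0.27 for *Gclc*. The other 18 genes of this list did not pass the unadjusted threshold, among them *Nqo1* at -0.05 ± 0.121, *Hmox1* at -0.28 ± 0.185 and the partner subunit *Gclm* at -0.08 ± 0.107. Of the 20 genes, 13 were below 0 and 7 above, up to 0.11, with a median of -0.04. Without all *Xist* arrays 7 were below 0, and the median turned to 0.02. After dams on diet H, HH minus HL was 0.00045 ± 0.067 for *G6pdx* and -0.0004 ± 0.076 for *Gclc*, and the unadjusted p of the difference from these values was 0.0061 and 0.0332 in limma, with adjusted p of 0.770 for both.

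Genes of DNA replication and of entry into S phase leaned lower in LH colon. Of 29 measured genes, 8 were lower at an unadjusted p under 0.05 (27.6%, against 2.52% lower over all genes) and 0 were higher, 22 were below 0, and the median was -0.11. The adjusted p of these 8 genes was 0.747 or higher in limma. The 8 were *Cdc6*, *Mcm3*, *Mcm4*, *Mcm5*, *Cdc45*, *Rfc3*, *E2f1* and *Fen1*. The mean of the list was lower in LH on 5 of 6 slides, with within-slide differences from -0.23 to 0.0035. The count was 3 without LL replicate 6 and 5 without LH replicate 3, where 788 of 41173 and 901 of 41172 probes were lower. It was 6 without all *Xist* arrays (3.69% of all genes) and 8 without the *Xist* arrays that lack Y signal (2.12%). With the slide left out of the model it was 3, and 498 of 41173 probes were lower. In a fit of all 48 arrays it was 0, and 645 of 41171 probes were lower. In the main fit 1017 of 41173 probes were lower, all counts being at an unadjusted p under 0.05. The median of the list was -0.08 without LL replicate 6.

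The MCM proteins form the ring that unwinds DNA at replication origins, and its 6 subunits gave unlike values. *Mcm4* was at -0.23 ± 0.091, *Mcm2* at -0.21 ± 0.121, *Mcm3* at -0.20 ± 0.086 and *Mcm5* at -0.19 ± 0.070. *Mcm7* was at -0.11 ± 0.071, and *Mcm6* was at 0.04 ± 0.067. The log2 ratio of *Mcm5* was 0.0022, 0.36 and 0.85 in LL mice and -0.04, 0.15 and 0.36 in LH mice, with LH lower on 5 of 6 slides. Without LL replicate 6 the *Mcm5* difference was -0.11, and without all *Xist* arrays it was -0.33. *Cdc6*, which loads the ring onto DNA, was -0.18, -0.10 and 0.45 in LL mice and -0.50, -0.22 and -0.05 in LH mice. The difference was -0.25 ± 0.089 (unadjusted p 0.0112), and a second, dimmer probe gave -0.12 ± 0.099. *Fen1*, the nuclease that trims Okazaki fragments, was -0.29, -0.16 and -0.07 in LL mice and -0.55, -0.38 and -0.24 in LH mice. LH was lower on all 6 slides, with a difference of -0.21 ± 0.076 (unadjusted p 0.0114). *Pcna*, the sliding clamp of the replication fork, was at -0.13 ± 0.074, and the ligase *Lig1* was at 0.04 ± 0.053.

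Replication genes are classical targets of the E2F transcription factors, whose gene *E2f1* was itself at -0.13 ± 0.060. RefSeq promoter windows of 250 bases before the start (GRCm38.p6) were available for 24 of the 29 measured genes. They were searched on both strands for TTTCCCGC and TTTGGCGC, which are forms of the E2F site. Other forms of the site were not searched, so a window without a match may still hold them. A match was found in 6 of 24 windows (25%) against 1.35% of 27025 windows over all genes. Among the windows of genes that passed the unadjusted threshold, 2 of 7 held a match, and among the others 4 of 17. The upstream sequences of 3 MCM subunits are shown because they differ in these matches, which stand in capitals. That of *Mcm3* is chr1:20820313-20820562 on the minus strand, that of *Mcm5* is chr8:75109259-75109467 on the plus strand, cut at the first annotated base of the gene, and that of *Mcm6* is chr1:128359706-128359955 on the minus strand.
Mcm3: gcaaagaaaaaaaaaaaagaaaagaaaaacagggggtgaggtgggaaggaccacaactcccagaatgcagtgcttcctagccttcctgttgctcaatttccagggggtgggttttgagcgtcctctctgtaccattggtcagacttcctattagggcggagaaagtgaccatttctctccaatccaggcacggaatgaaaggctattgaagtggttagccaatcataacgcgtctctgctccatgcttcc
Mcm5: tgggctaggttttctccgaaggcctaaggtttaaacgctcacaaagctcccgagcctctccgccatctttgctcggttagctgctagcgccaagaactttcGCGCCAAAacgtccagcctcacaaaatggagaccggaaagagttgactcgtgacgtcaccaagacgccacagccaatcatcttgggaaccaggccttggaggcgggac
Mcm6: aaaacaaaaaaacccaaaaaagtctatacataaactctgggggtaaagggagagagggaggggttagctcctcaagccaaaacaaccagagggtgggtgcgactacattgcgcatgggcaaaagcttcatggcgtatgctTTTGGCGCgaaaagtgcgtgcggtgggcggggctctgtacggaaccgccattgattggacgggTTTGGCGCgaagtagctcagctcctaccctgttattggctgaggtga
The searched windows of *Mcm3*, *Mcm5* and *Mcm6* held 0, 1 and 2 matches, and those of *Cdc6* and *Mcm7* held 1 each. The differences of these genes are given above, and whether they go with the matches was not tested.

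After dams on diet H the same genes leaned the other way. In HH minus HL, 8 of the 29 replication genes were higher at an unadjusted p under 0.05 (6.01% of all genes were) and 0 were lower (2.78% of all genes), and the median was 0.11. The difference between both comparisons had an unadjusted p under 0.05 for 15 of the 29 genes, against 7.13% of all genes, and for no probe on the array was its adjusted p under 0.760. For *Fen1*, HH minus HL was 0.12 ± 0.076, and the difference from LH minus LL had an unadjusted p of 0.0060 in limma. For *Rrm1*, the large subunit of the enzyme that makes deoxynucleotides, LH minus LL was -0.15 ± 0.081 and HH minus HL 0.21 ± 0.081, with an unadjusted p of 0.0061 for the difference. Of the genes of mitosis and the spindle checkpoint, 0 of 29 passed the unadjusted threshold in LH minus LL, with a median of -0.02 and within-slide means from -0.20 to 0.16. In HH minus HL, 23 of these 29 were higher, with a median of 0.33, and 17 had an unadjusted p under 0.05 for the difference between both comparisons. These comparisons rest on HH replicate 1, whose log2 ratios spread least of the colon arrays (SD 0.53), and on *Xist* arrays in HH and HL as well as LL. Without HH replicate 1, HH minus HL was higher for 6 replication and 21 mitosis genes, against 2.46% of all genes, and 11 and 14 had an unadjusted p under 0.05 for the difference between comparisons, against 4.88%. These counts without all *Xist* arrays were 4 and 15 against 2.2%, and 8 and 9 against 5.03%. In liver, LH minus LL had a median of 0.09 over the replication genes, of which 5 were higher at an unadjusted p under 0.05 (7.33% of all genes) and 0 were lower (6.28% of all genes). The colon and liver differences differed for *Fen1* with an unadjusted p of 0.0011 and for *Cdc6* with 0.0045. No probe passed an adjusted p of 0.05 in that comparison of tissues, in which 7.39% had an unadjusted p under 0.05 and the lowest adjusted p was 0.226.

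**Figure D3:**
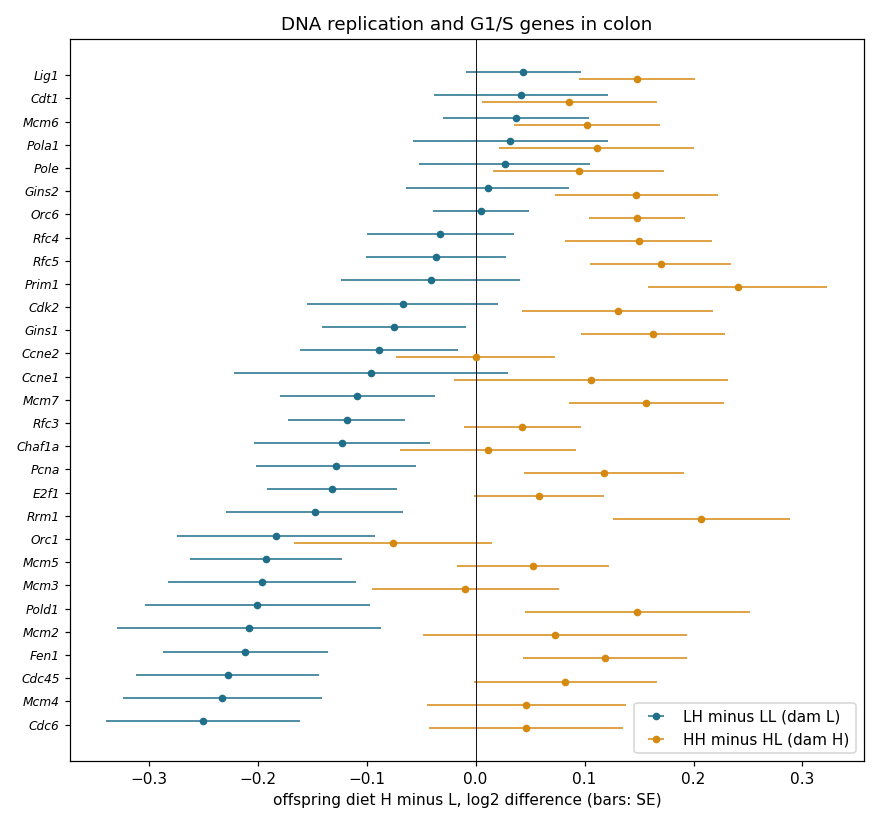
Log2 difference of offspring diet H minus diet L for 29 genes of DNA replication and entry into S phase, with bars of 1 SE, after dams on diet L (LH minus LL, blue) and dams on diet H (HH minus HL, orange), ordered by LH minus LL. The blue points lie below 0 for 22 genes, with a median of -0.11, and the orange points have a median of 0.11.

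The genes with the lowest p that were higher in LH mice had varied functions, and all had an adjusted p of 0.730 in limma. *Ypel5*, a zinc-binding protein of a ubiquitin ligase complex, was -0.74, -0.31 and -0.14 in LL mice and -0.43, -0.12 and 0.39 in LH mice. Its difference was 0.32 ± 0.069, higher on 5 of 6 slides, with a second probe at 0.24 ± 0.095. *Tvp23b*, a membrane protein of the Golgi, did not overlap, with -0.23, -0.05 and 0.03 in LL mice and 0.03, 0.12 and 0.44 in LH mice, and a difference of 0.24 ± 0.056. *Hnrnpl*, a regulator of splicing, was at 0.34 ± 0.080, and *Tbca*, a chaperone of tubulin folding, at 0.20 ± 0.047. *Slc7a8*, a transporter of neutral amino acids at the basolateral membrane, was at 0.25 ± 0.059 and higher on all 6 slides. *Lrch1* was at 0.22 ± 0.052. *Glce*, an epimerase of heparan sulphate synthesis, was at 0.23 ± 0.050, and *Clic5*, a chloride channel protein of microvilli, at 0.30 ± 0.066, but the second probe of each gave 0.0028 ± 0.053 and -0.04 ± 0.096. With median centring all 8 stayed above 0, at 0.12 or more.

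The genes with the lowest p that were lower in LH mice likewise had varied functions. *Dhx29*, a helicase that helps the small ribosomal subunit to scan structured mRNAs, lies at chr13:112927680-112969432. It was -0.19, 0.18 and 0.46 in LL mice and -0.45, -0.19 and -0.0051 in LH mice. The difference was -0.33 ± 0.069, lower on 5 of 6 slides, with an unadjusted p of 0.00014 and an adjusted p of 0.730 in limma. Over 30 alternative settings it ran from -0.46 to -0.29, and its unadjusted p from 1.5e-06 to 0.0078. *Nolc1*, a nucleolar chaperone of ribosome assembly, was -0.28, 0.35 and 0.61 in LL mice and -0.72, 0.02 and 0.08 in LH mice, where LH replicate 3 stood far below the rest. Its difference was -0.38 ± 0.086, lower on all 6 slides, with a second probe at -0.16 ± 0.106. *Rpl7l1*, a protein related to ribosomal protein L7, did not overlap, with -0.29, -0.14 and 0.02 in LL mice and -0.41, -0.37 and -0.31 in LH mice. Its difference was -0.24 ± 0.056, but a dimmer probe gave -0.05 ± 0.080. *Ppdpf*, a regulator of exocrine pancreas development, did not overlap either, at -0.21 ± 0.053. *Tubd1*, the delta tubulin of centrioles, was at -0.23 ± 0.057 and lower on all 6 slides, and *Smap2*, which controls vesicle transport from the Golgi, was at -0.33 ± 0.082. In liver of the same diets *Nolc1* was at -0.49 ± 0.099, *Tubd1* at -0.24 ± 0.062 and *Dhx29* at -0.26 ± 0.097, whereas *Rpl7l1* was at -0.09 ± 0.062, *Ppdpf* at -0.04 ± 0.071, *Smap2* at 0.06 ± 0.115, *G6pdx* at -0.04 ± 0.097 and *Secisbp2* at -0.04 ± 0.088.

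Of the remaining lists of metabolism and stress, few members passed the unadjusted threshold. In mitochondrial protein import 3 of 27 genes were lower (2.52% of all genes were) and 0 higher, with a median of -0.03. Without all *Xist* arrays 1 was lower (3.69% of all genes). *Timm8b* and *Timm9*, small chaperones of the space between the mitochondrial membranes, were at -0.19 ± 0.068 and -0.19 ± 0.076 and lower on all 6 slides, and *Tomm70a*, an import receptor, was at -0.15 ± 0.071 with its other probes at 0.0075 and 0.04, and at -0.085 without LL replicate 6 and -0.27 without all *Xist* arrays. Among 20 chaperones and unfolded protein response genes of the endoplasmic reticulum, *Dnajc3*, an inhibitor of the kinase PERK, was at -0.29 ± 0.091 and -0.44 without all *Xist* arrays, and its dimmer probes ran from -0.20 to 0.0033. Among 15 targets of p53, *Bbc3*, which promotes apoptosis, was at 0.41 ± 0.167 and *Trp53inp1*, a cofactor of p53, at 0.22 ± 0.10, whereas *Cdkn1a*, the cell cycle inhibitor, was at -0.21 ± 0.123. Of these p53 targets 2 were higher (3.89% of all genes were), 1 without all *Xist* arrays (5.37%) and 0 with median centring (1.08%). In fatty acid oxidation 0 of 24 genes passed.

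Immediate early genes, which respond within minutes to stimuli, were above 0 in 14 of 15 cases with a median of 0.14, and 3 passed the unadjusted threshold (3.89% of all genes were higher). The list turned when all *Xist* arrays were left out, with 10 of 15 genes below 0, a median of -0.04 and 0 passing. *Egr1* had the widest spread, with -0.58, -0.26 and 0.77 in LL mice and -0.16, 0.92 and 2.01 in LH mice. Its difference was 0.87 ± 0.391, but LH was higher on only 3 of 6 slides, and it was 0.57 without LH replicate 1 and 0.21 without all *Xist* arrays. *Junb* was at 0.26 ± 0.115 and *Fosb* at 0.14 ± 0.061, with 0.17 and 0.02 without all *Xist* arrays.

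**Figure D4:**
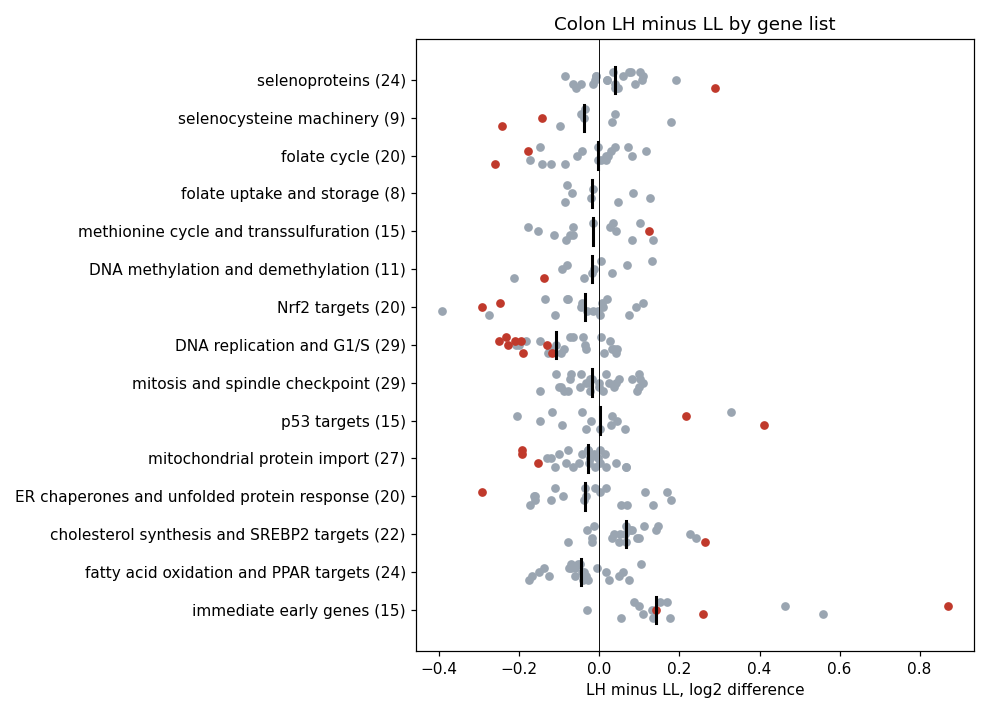
Log2 difference of LH minus LL for the genes of 15 lists, 1 point per gene, with the number of genes measured in brackets; red points have an unadjusted p under 0.05 in limma and black bars are list medians. The replication list has 8 red points below 0 and none above, and the immediate early genes lie above 0 except for 1, whereas 10 of the 15 were below 0 without all Xist arrays, which are included here.

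Few cell type markers passed the unadjusted threshold, and several lists depended on the *Xist* arrays. Of 20 markers of absorptive colonocytes, 16 of goblet cells, 16 of enteroendocrine cells, 15 of smooth muscle and 19 of enteric neurons and glia, 0 passed, and the medians lay between -0.03 and 0.08 (-0.12 and 0.06 with median centring). Without all *Xist* arrays 3 smooth muscle, 2 enteroendocrine, 1 goblet and 1 enteric neuron genes were higher (5.37% of all genes). Among 15 genes of crypt stem cells and Wnt targets, *Znrf3*, a ubiquitin ligase that removes Wnt receptors, was at 0.20 ± 0.081, with 0.15 without all *Xist* arrays, and the median was 0.05. Among 15 genes of macrophages, granulocytes and mast cells, *Adgre1*, a surface receptor of macrophages, was at 0.28 ± 0.111, with a second probe at 0.02 ± 0.064. Adipocyte genes varied from mouse to mouse, and the mean log2 ratio of 11 adipocyte genes ran from -0.64 to 2.16 in LL mice and from -0.65 to 1.62 in LH mice. Markers of hepatocytes, with means of -3.58 or less, and of the exocrine pancreas, with means of -2.70 or less, were low in both groups. No gene passed the unadjusted threshold among 12 of fibroblasts and endothelium, 12 of B and plasma cells, 12 of T and NK cells, 6 of erythroid cells, 12 and 6 of the opposite phases of the circadian clock and 20 of the interferon response, nor among those of adipocytes, hepatocytes and pancreas. The B and plasma cell genes had a median of -0.25, with LL replicate 4 high. Without all *Xist* arrays 5 of the 12 B and plasma cell genes were lower (3.69% of all genes) with a median of -0.62, and the adipocyte median was 0.52 against 0.02 with these arrays. The interferon genes had a median of 0.10 with 15 of 20 above 0. Without all *Xist* arrays all 20 were below 0, with a median of -0.56, and 7 were lower at an unadjusted p under 0.05 (3.69% of all genes). The 3 LL mice left in that fit had list means of -1.29, -0.21 and -0.17, and the 6 LH mice ran from -1.64 to -0.35. The part of these cell types in the differences above was not tested.

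By the p of the difference between LH minus LL and HH minus HL, the first genes were *Olfr646*, an olfactory receptor, *Chrna3*, a nicotinic receptor subunit of ganglion neurons, and *Npas1*, a neuronal transcription factor. LH minus LL and HH minus HL were 0.39 ± 0.125 (0.26 without LH replicate 1) and -0.51 ± 0.125 for *Olfr646*, 0.24 ± 0.089 and -0.36 ± 0.089 for *Chrna3*, and 0.19 ± 0.052 and -0.15 ± 0.052 for *Npas1*. The adjusted p of the difference was 0.760 for all 3 in limma. HH minus HL uses HH replicate 1 and *Xist* arrays, as above, and its values without them are not given for these 3 genes. Over 19 enteric neuron and glia genes, its median was -0.28, -0.08 without HH replicate 1 and -0.11 without all *Xist* arrays. For the difference, 10, 6 and 2 of the 19 had an unadjusted p under 0.05 in limma. The shares over all genes were 7.13, 4.88 and 5.03%. *Npas1* was well above background on 4 of 6 LH and 5 of 6 LL arrays, and a second, dimmer probe of *Chrna3* gave -0.03 ± 0.083 for LH minus LL.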

How the data were processed

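Colon and liver RNA of 48 mouse samples was hybridised to Agilent 2-colour arrays. The authors deposited, per array, Feature Extraction 10.10.1.1 output with median pixel intensity per spot, and for the local background, not normalised, and a table of log2 ratios that matched loess without background correction (r of 0.99998 or more). The submitters' notes name limma and R 3.0.2. The study's methods describe the reference as pooled liver and intestine, the deposited description as a whole pregnant mouse.

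R 4.3.3 and limma 3.58.1 were used: normexp (offset 50), global loess within arrays, flagged spots (102 to 234 per array) left out, log2 of Cy3 over Cy5, spots of a probe averaged. The 24 colon arrays were fitted as 4 groups with slide as a block (15 residual degrees of freedom), and the liver with the LH and LL arrays of both tissues. Benjamini-Hochberg values run over all probes. Accessions named 27050 of 41174 probes (18434 genes). The number of arrays limits precision.

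The LH and LL arrays were paired by slide, and the replicate number follows the slide. Deviations of LH and LL on the same slide correlated at 0.10 to 0.471, and on different slides at -0.423 to 0.513; 2 of 6 LH arrays matched the LL array of their own slide best. The code was tested on simulated data. Members and lists were chosen with earlier results of these data known: 33 lists, in each (contaminating cell types aside) up to 3 genes at an unadjusted p under 0.05, or in lists on Se and folate the gene of lowest p, 8 genes of lowest p each way among those well above background on at least 9 of 12 arrays, 3 of lowest p for the difference between comparisons, and sex-linked genes; genes given beside these are list members. Results for some genes are not reported here.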

Additional observations from a re-analysis of the deposited data

Results flagged for a closer look

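Among 96 groups of 6 mice tested over the named genes, 3 held a mouse far from the others, and chance sets apart about 1 in 20 groups. *Nolc1* was -0.72 in LH replicate 3 and between 0.0088 and 0.08 in the other 5 LH mice. *Cdc6* was 0.45 in LL replicate 6 and between -0.18 and -0.0037 in the other 5. *Trp53inp1* was 1.36 in LL replicate 4 and between 0.63 and 0.84 in the other 5.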

How the results depend on the processing

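The count of 0 probes at the adjusted threshold held under all 30 alternatives, with a lowest adjusted p of 0.0625, reached without LL replicate 1. Without the replicate block, that is, with slide left out of the model, 1073 probes had an unadjusted p under 0.05. Of these 498 were lower, and 3 replication genes were lower. In a fit of all 48 arrays these counts were 1324, 645 and 0. In the Cy3 channel after Aquantile 1221 of 41173 probes and 4 replication genes were lower. Leaving out 1 mouse at a time gave 1964 (without LL replicate 6) to 3136 (without LH replicate 5) probes and 3 to 10 replication genes. The probes lower in LH were 788 without LL replicate 6 and 1246 without LH replicate 5. Of 48 named genes, 44 kept their direction, and none passed the threshold. The 4 others were sex-linked. *Xist* turned to 0.16, *Tsix* to 0.0019 without LL replicates 1 and 3 and the other mouse lacking Y signal. Without all *Xist* arrays the values were 1.03 for *Xist*, 0.0015 for *Tsix*, -0.0095 for *Eif2s3y* and -0.053 for *Ddx3y*. With *Xist* as a covariate they were 1.19, 0.038, -0.13 and -0.15. The cause of the other shifts was not tested.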

Other observations

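Some genes outside the rule for named genes, chosen after their values were seen, had large differences. Over all genes, 21 differed by more than 1.5-fold (0.114%), of which 5 were *Xist* and Y-linked genes and 9 differed most on the slide of LL replicate 4, the mouse with high lymphocyte transcripts. *Cyp1a1*, the detoxifying enzyme induced through the aryl hydrocarbon receptor, was lower in LH on all 6 slides, with -4.13, -3.38 and 2.55 (lowest, median and highest) in LL mice and -4.41, -4.12 and -3.47 in LH mice. The difference was -6.55 on the slide of LL replicate 6 and -1.51 to -0.03 on the others. It was well above background on 4 of 6 LL and 2 of 6 LH arrays. *Mmp3*, a matrix metalloproteinase, was also lower on all 6 slides, with 0.16, 0.73 and 2.52 in LL mice and -0.18, 0.10 and 0.48 in LH mice, and a difference of -0.77 ± 0.266 (unadjusted p 0.0094, adjusted p 0.747 in limma). It was -2.05 on the slide of LL replicate 4 and -1.09 to -0.07 on the others. The antimicrobial lectins *Reg3g* and *Reg3b* were at -0.84 ± 0.547 and -0.81 ± 0.638 and were lower in LH on 3 of 6 slides each.

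Interferon response genes varied widely between mice. The mean log2 ratio of 20 such genes ran from -1.93 to -0.17 in LL mice and from -1.64 to -0.35 in LH mice. The 3 LL *Xist* arrays were at -1.23, -1.92 and -1.93, and the other LL mice at -1.29, -0.21 and -0.17. The within-slide difference ran from -1.42 to 1.58. Genes of cholesterol synthesis were lower in LH on 3 slides, by -0.20 to -0.18, and higher on the other 3, by 0.28 to 0.38.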
